A study of Gallus gallus with 4 samples.

Results

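The interferon response and antiviral genes MX1, IRF1, IRF7, OASL, IFIH1 and EIF2AK2 were read in the liver of broiler chickens that differed in feed efficiency. They were chosen by name, with earlier results of these data known. Their probes were found through the RefSeq accession printed beside each probe in the array files. Of the 6 genes, 5 had probes that matched, 10 probes in all, among 5382 genes with a named probe. No accession on the array matched the current entries for OASL, of the family of enzymes that make 2',5'-linked oligoadenylates. Whether probes with older accessions read OASL could not be settled from the gene table, and OASL was not analysed here. All 10 probes were well above background on all 4 arrays, so none of them was removed by the filter on dim signals. None of the 5 genes lies on chromosome Z or W.

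Group 1 was labelled high and group 2 low, and the labels apply these words to both feed efficiency and residual feed intake, which usually run opposite ways. The groups therefore keep their numbers. Each had 2 one-colour arrays of liver RNA from coloured broilers aged 35 days, kept in single cages with free feed and water. The low group is named as the control in the design text. Birds were pooled within a group. The design text speaks of a pool divided in duplicate, but the labels name females for both arrays of group 1 and for group 2 replicate 1, and 1 male and 1 female for group 2 replicate 2. Nothing shows that the group 1 arrays came from separate pools. The group 2 arrays differed on the sex chromosomes, as given below, so their spread need not be technical alone. The p-values measure only the spread between these arrays, which in group 1 may be technical.

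The array labelled group 2 replicate 1 stood apart from the others on the sex chromosomes. Its 416 Z-linked probes had a median of 0.50 log2 units above the mean of the other arrays, against -0.16 for group 2 replicate 2. HINTW, a gene of the female-specific W chromosome, was at least 2-fold below the group 1 mean in 8 of 8 probes on group 2 replicate 1 and in 0 of 8 on replicate 2. Relative to that mean, the median of its probes was -9.58 log2 units on replicate 1 and -0.29 on replicate 2. Group 2 replicate 1 thus goes against its label, which names females only. Replicate 2 lay near the group 1 mean on HINTW, though its label names 1 male and 1 female. Whether the label of either array is right was not tested. Replicate arrays differed over the kept probes with an SD of 0.42 log2 units in group 1 and 0.79 in group 2. Group differences below rest on both group 2 arrays. Where an interferon pathway gene named here gained a call without one of them, at its brightest probe, its difference in that fit is given. In such a fit 1 array stands for group 2, and calls were common among all genes, as given below. In bulk liver RNA, fewer cells of a type and less RNA per cell cannot be told apart.

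Cells sense viral RNA through receptors such as the cytosolic protein IFIH1 (MDA5), which binds long double-stranded RNA, and they answer by secreting interferons. Interferon receptors signal through JAK kinases and STAT factors, which together with interferon regulatory factors (IRF) turn on genes that block viral replication. The chicken lacks the sensor RIG-I that mammals have, and IRF7 is a factor that drives type I interferon genes in chickens. Levels are log2 of the processed intensity relative to the 75th percentile of the array, so that 0 is that percentile and 1 unit is a doubling. They can be compared between arrays for 1 probe but not between probes.

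MX1 differed most between the arrays. It encodes a GTPase that hinders the replication of influenza and other viruses in mammals and is a standard marker of interferon signalling. Its brighter probe stood at 1.15 and 1.19 on group 1 replicates 1 and 2, and at 4.53 and -0.21 on group 2 replicates 1 and 2. In scanner units these were intensities of 2165 and 3313 in group 1, and 27065 and 1108 in group 2. The group 1 arrays were close to each other, and the group 2 arrays lay on either side of them, one far above and one below. The second probe showed the same order, with -1.30 and -1.38 in group 1, and 1.69 and -2.95 in group 2.

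Between the group 2 arrays MX1 was thus 26.7-fold higher on replicate 1 than on replicate 2 by its brighter probe and 24.8-fold higher by the other. Against the group 1 mean, group 2 replicate 1 was 10.3-fold and 8.16-fold higher by these probes, and the group 1 mean was 2.59-fold and 3.04-fold above group 2 replicate 2. No other of the 4871 genes measured on both group 2 arrays had a larger rise on replicate 1 over replicate 2, each gene taken by its brightest probe. With 1 array on each side this is a description of those arrays and carries no test. Of all genes, 4.5% were at least 2-fold higher on group 2 replicate 1 than on replicate 2 and 4.87% at least 2-fold lower.

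**Figure D1:**
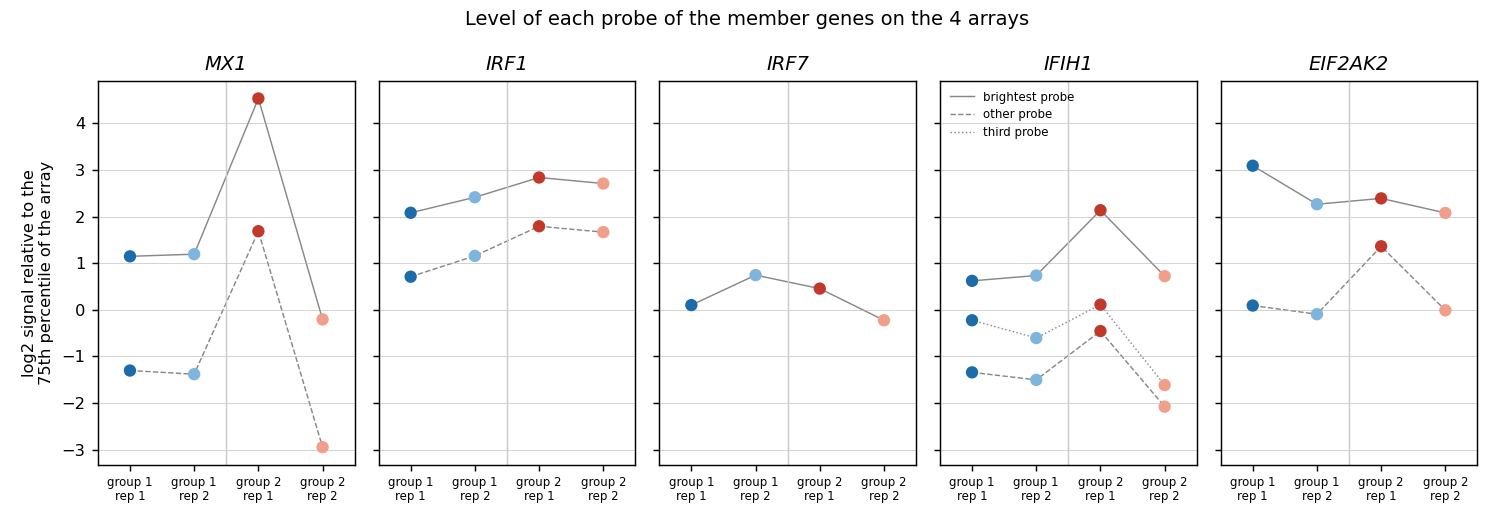
Level of each of the 10 probes (log2 signal relative to the 75th percentile of the array) on the 2 group 1 arrays and the 2 group 2 arrays, a panel per gene and a line per probe. Both MX1 probes and all 3 IFIH1 probes peak on group 2 replicate 1, both IRF1 probes lie lower on the group 1 arrays than on either group 2 array, and the probes of EIF2AK2 differ in pattern.

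The sensor IFIH1 had 3 probes, and each was highest on group 2 replicate 1. The brightest stood at 0.62 and 0.73 in group 1, and at 2.14 and 0.72 in group 2. The second read -0.22 and -0.61 in group 1, and 0.11 and -1.61 in group 2. The third read -1.34 and -1.50 in group 1, and -0.46 and -2.08 in group 2. Group 2 replicate 1 exceeded replicate 2 by 2.67-fold, 3.30-fold and 3.08-fold on these probes. Relative to group 1, replicate 2 lay level on the brightest probe (0.04 log2 units above the mean) and lower on the others (-1.20 and -0.65), so the probes disagree on that side.

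EIF2AK2 encodes the kinase PKR, which is switched on by double-stranded RNA and halts protein synthesis by phosphorylating the initiation factor eIF2. Its 2 probes did not show the same pattern. The brighter read 3.09 and 2.26 in group 1, and 2.39 and 2.08 in group 2, with group 1 replicate 1 the highest. The dimmer read 0.09 and -0.09 in group 1, and 1.36 and -0.01 in group 2, and resembled IFIH1 in that only group 2 replicate 1 was raised, 2.59-fold above replicate 2. On the brighter probe that ratio was 1.24, and group 2 replicate 1 lay 0.29 log2 units below the group 1 mean. Which transcripts the probes read was not analysed here, and the pattern of EIF2AK2 is uncertain.

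IRF1 and IRF7 are the transcription factors of the set. IRF1, which is induced by interferon gamma and activates antigen presentation genes, read 2.08 and 2.41 in group 1, and 2.84 and 2.71 in group 2 on its brighter probe. Its second probe, averaged over 5 spots, read 0.71 and 1.16 in group 1, and 1.79 and 1.67 in group 2. On both probes the groups did not overlap and the group 2 arrays were close together, 0.13 log2 units apart on each. Among all genes, 27.8% lay wholly lower in group 1 and 68.1% did not overlap in either direction, so the separation of IRF1 is common on these arrays. IRF7, measured by 1 probe, read 0.10 and 0.74 in group 1, and 0.45 and -0.22 in group 2, with overlapping groups. Its lowest array was group 2 replicate 2, as for both MX1 probes, and replicate 1 of that group was 1.60-fold above it.

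Taken by probes, 8 of 10 were highest on group 2 replicate 1, against 23.3% of all probes. By the same count 6 of 10 were at least 2-fold higher there than on group 2 replicate 2, against 6.97% of all probes, and these 6 belong to MX1, IFIH1 and EIF2AK2. On 4 of 10, both MX1 probes and the dimmer pair of IFIH1, group 2 replicate 1 lay above and replicate 2 below both group 1 arrays, against 6.55% of all probes. By genes, with each one at its brightest probe, 3 of 5 were highest on group 2 replicate 1 (24% of all genes), and MX1 and IFIH1 were at least 2-fold above replicate 2. The group 1 arrays were at least 2-fold apart on 0 of the 10 probes (2.92% of all probes), the widest gap being 0.83 log2 units for the brighter EIF2AK2 probe. Probes of 1 gene share their target and are not independent. The genes were chosen with earlier results known, and were read array by array because the group 2 arrays differ on them. These counts, and those below without a group 2 array, describe that difference and are no support for it.

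The comparison of group 1 with group 2 gave no call for any of these genes. By limma with Benjamini-Hochberg adjustment over 33866 probes, 0 of 10 probes and 0 of 5 genes passed an adjusted p of 0.05, while 11.2% of all probes and 9.67% of all genes did. At an unadjusted p under 0.05 there was 1 probe, the dimmer IRF1 probe, and 0 genes, against 35.3% of all probes and 31.6% of all genes. The differences below are group 1 minus group 2 with the moderated standard error, for 2 arrays per group. A group of 2 arrays against 2 cannot give an exact two-sided permutation p below 0.333.

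IRF1 came nearest, with log2 differences of -0.53 ± 0.23 (adjusted p = 0.175, limma) on the brighter probe and -0.80 ± 0.25 (adjusted p = 0.0992) on the other. MX1 differed by -0.99 ± 1.57 (adjusted p = 0.676), the widest error of the set, since its group 2 arrays lay on both sides of group 1. IFIH1 differed by -0.75 ± 0.51 on its brightest probe (adjusted p = 0.341), and by 0.34 and -0.16 on the others. EIF2AK2 differed by 0.44 ± 0.35 (adjusted p = 0.407) on the brighter probe, or by 0.03 without group 1 replicate 1 and 0.86 without group 1 replicate 2, and by -0.68 on the dimmer probe. IRF7 differed by 0.31 ± 0.36 (adjusted p = 0.573). The median of the 5 genes was -0.53, against 0.14 for all genes. With each array scaled on its median these were -0.74 and -0.08. The median of the 5 was 0.60 without group 2 replicate 1, against 0.11 for all genes. Without group 2 replicate 2 it was -0.59, against 0.13. With the mean of a gene's probes it was -0.19, against 0.08.

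The direction for MX1 was set by which group 2 array was present. Without group 2 replicate 1, MX1 was called higher in group 1, by 1.38 ± 0.18 and 1.60 ± 0.18 on its probes (limma, adjusted p = 0.0234 and 0.0205). Without group 2 replicate 2 it was called lower in group 1, by -3.36 ± 0.18 and -3.03 ± 0.18 (adjusted p = 0.0133 and 0.0134). In these fits 1 array stands for group 2 and is assumed to vary like the pair of group 1. No IFIH1 probe was called in both directions. The second of the 3 was called higher in group 1 without group 2 replicate 1 (1.20, adjusted p = 0.0447), and the brightest (-1.46, adjusted p = 0.0217) and the dimmest (-0.97, adjusted p = 0.0409) lower without replicate 2. On the brightest the difference was -0.04 without group 2 replicate 1 (adjusted p = 0.872). The dimmer EIF2AK2 probe was also called lower without replicate 2 (-1.36, adjusted p = 0.0253).

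Without group 2 replicate 1, 3 of 10 probes were called higher in group 1 and 0 lower, against 16.7% and 8.44% of all probes. Without replicate 2, 0 of 10 were called higher and 5 lower, against 17.3% and 9.19%. IRF1 was called in neither fit. Its difference was -0.46 without group 2 replicate 1 and -0.59 without replicate 2, on the brighter probe.

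**Figure D2:**
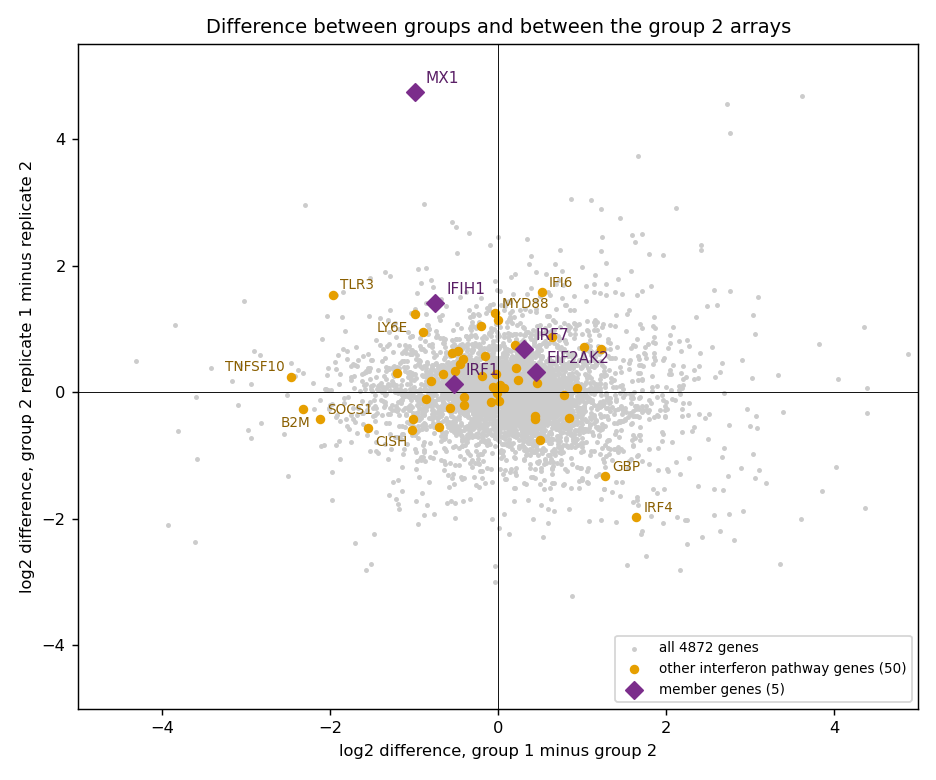
Each of 4872 genes by its log2 difference between groups (horizontal, group 1 minus group 2) and between the group 2 arrays (vertical, replicate 1 minus replicate 2), at its brightest probe; 10 genes fall outside the axes. MX1 (diamond, -0.99 and 4.74) lies far above the cloud and close to its middle from side to side, while B2M, TNFSF10, SOCS1 and CISH (circles) lie to the left with small differences between the group 2 arrays.

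Other genes of the pathway were drawn from lists of interferons, receptors, sensors, signalling factors, effectors and inhibitors, 109 names of which 53 had a named probe and 50 a measured one. Many standard interferon-induced genes, such as IFIT5 and RSAD2, had no probe matched by accession and were not analysed here. Of the 50, 0 were called higher and 4 lower in group 1, against 5.75% and 3.92% of all genes (limma). At an unadjusted p under 0.05 there were 18 of 50, against 31.6% of all genes. Their median difference was -0.13. Between the group 2 arrays 6 were at least 2-fold higher on replicate 1 and 2 at least 2-fold lower, against 4.5% and 4.87% of all genes. On group 2 replicate 1, 20 of the 50 were highest, against 24% of all genes.

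Of the interferons themselves, IFNA3, a type I interferon, and IFNG, the type II interferon of lymphocytes, were measured. IFNA3 lies on chromosome Z, on which group 2 replicate 1 stood apart. It read -2.55 and -2.75 in group 1, and -3.29 and -2.87 in group 2. IFNG read -3.28 and -4.06 in group 1, and -3.63 and -3.75 in group 2. On these probes, the brightest of each, neither was highest on group 2 replicate 1, and their group differences of 0.43 and 0.02 did not pass. The dimmer IFNG probe was highest on group 2 replicate 1, at -3.36, and its group difference of -0.60 did not pass (adjusted p = 0.157, limma). Among 4 receptor chains none passed either. IFNAR1, a chain of the type I receptor, differed by -1.03 (adjusted p = 0.0764, limma), and IL10RB, shared by interferon lambda and interleukin 10 receptors, by -1.01 (0.0632). IFNGR1, a chain of the interferon gamma receptor, differed by 1.02 (0.0983), so the signs of the receptors were mixed. Without group 2 replicate 1 the differences were -1.32 for IFNAR1, -1.22 for IL10RB and 1.38 for IFNGR1. IL10RB was called with median scaling (adjusted p = 0.0489, limma) and with normexp and quantile normalization (0.0408).

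Among 8 sensors and adaptors, TLR3 and MYD88 were at least 2-fold higher on group 2 replicate 1 than on replicate 2. TLR3, the endosomal receptor for double-stranded RNA, read -0.74 and -0.63 in group 1, and 2.05 and 0.52 in group 2. Both group 2 arrays were above group 1, and the group difference of -1.97 ± 0.54 did not pass (adjusted p = 0.0817). The difference of TLR3 was -1.20 without group 2 replicate 1 and -2.74 without group 2 replicate 2. MYD88, the adaptor of most Toll-like receptors, read 1.03 and 0.96 in group 1, and 1.66 and 0.41 in group 2, which placed the group 2 arrays on both sides of group 1, as for MX1. DHX15, an RNA helicase, had differences between the group 2 arrays of 0.75 to 0.96 on its 3 probes. TLR7 (0.93, adjusted p = 0.0556), a receptor for single-stranded RNA, and TLR4 (-0.80, adjusted p = 0.0758), the receptor for bacterial lipopolysaccharide, differed between the group 2 arrays by 0.06 and 0.17 on their brightest probes. The dimmer TLR4 probe differed there by -0.94. TLR7 differed by 0.97 without group 2 replicate 1 and by 0.90 without group 2 replicate 2.

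Among 8 signalling and IRF factors none passed. The gene listed as IRF9 in the chicken annotation, which also gives it the name IRF10, read -1.71 and -1.48 in group 1, and -0.91 and -1.43 in group 2. It was highest on group 2 replicate 1, and the group difference of -0.42 ± 0.27 did not pass (adjusted p = 0.315, limma). IRF4, a factor of lymphocytes, was lowest on that array, with 0.13 and 0.05 in group 1, and -2.54 and -0.56 in group 2. Its group difference was 2.63 without group 2 replicate 2. JAK2 (0.64) and IRF2 (0.84) did not pass. JAK2 differed by 1.08 without group 2 replicate 1, and IRF2 by 1.04 without group 2 replicate 2. The 4 probes of JAK2 gave differences between -0.20 and 1.06, and 4 of the 5 probes of IRF2 between -0.32 and 0.40. JAK2 also lies on chromosome Z, and the part of the Z-linked signal of group 2 replicate 1 in its values was not tested.

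Of 18 genes listed as effectors or interferon-induced, B2M and TNFSF10 were the 2 called, both lower in group 1, against 3.92% of all genes. The list also holds EIF2S1, EIF2A, EIF2AK1, PSMB7 and IFITM5, and whether interferon induces these was not examined. IFITM5 differed by 1.22 and did not pass (adjusted p = 0.066, limma), but was called with normexp and quantile normalization (0.0415). Its difference was 1.56 without group 2 replicate 1 and 0.88 without group 2 replicate 2. B2M, the light chain of MHC class I molecules, read 2.53 and 2.75 in group 1, and 4.84 and 5.10 in group 2 (-2.33 ± 0.22, adjusted p = 0.0212, limma). TNFSF10, a death ligand (TRAIL) that interferons induce in mammals, read -0.40 and -0.16 in group 1, and 2.30 and 2.06 in group 2 (-2.46 ± 0.22, adjusted p = 0.0212). Unlike MX1, both genes were high on both group 2 arrays, which differed by -0.26 and 0.24 log2 units.

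Within that list IFI6, LY6E and ZC3HAV1 were at least 2-fold higher on group 2 replicate 1 than on replicate 2. IFI6, listed in the chicken annotation also as ISG12-2, read 7.44 and 6.9996 in group 1, and 7.49 and 5.91 in group 2. LY6E, a membrane protein that affects virus entry, read 5.85 and 6.42 in group 1, and 7.75 and 6.51 in group 2. The second probes of IFI6 and LY6E differed between the group 2 arrays by 1.26 log2 units each. GBP, of the guanylate-binding proteins, had the opposite order, with 3.83 and 3.68 in group 1, and 1.83 and 3.15 in group 2. Without group 2 replicate 2 the group difference was 1.93 for GBP and -1.62 for LY6E. For IFI6 it was 1.30 without group 2 replicate 1.

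Among 10 negative regulators SOCS1 and CISH, which inhibit JAK-STAT signalling, were called lower in group 1, against 3.92% of all genes. SOCS1 read 0.16 and 0.40 in group 1, and 2.19 and 2.61 in group 2 (-2.12 ± 0.25, adjusted p = 0.0257, limma). CISH read 1.32 and 1.29 in group 1, and 2.57 and 3.14 in group 2 (-1.55 ± 0.27, adjusted p = 0.0395), and lost its call with the replicate number as a block (adjusted p = 0.0512). SOCS3 differed by -0.71 on its brighter probe (adjusted p = 0.136) and by -1.002 on the other, which passed (0.0492), and SIRPA, an inhibitory receptor of myeloid cells, by 0.49. The brighter SOCS3 probe differed by -0.98 without group 2 replicate 1, and SIRPA by 0.87 without group 2 replicate 2. TRAFD1, a brake on innate signalling, read 3.47 and 3.47 in group 1, and 4.04 and 2.90 in group 2, and its 3 probes all lay higher on group 2 replicate 1 than on replicate 2, by 1.14 to 1.68. Without either group 1 array there was no call over all genes, and so none among the 50. Without group 2 replicate 1 there were 5 higher and 9 lower (12.5% and 8.81% of all genes), and without group 2 replicate 2 there were 7 higher and 11 lower (14.8% and 8.62%).

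**Figure D3:**
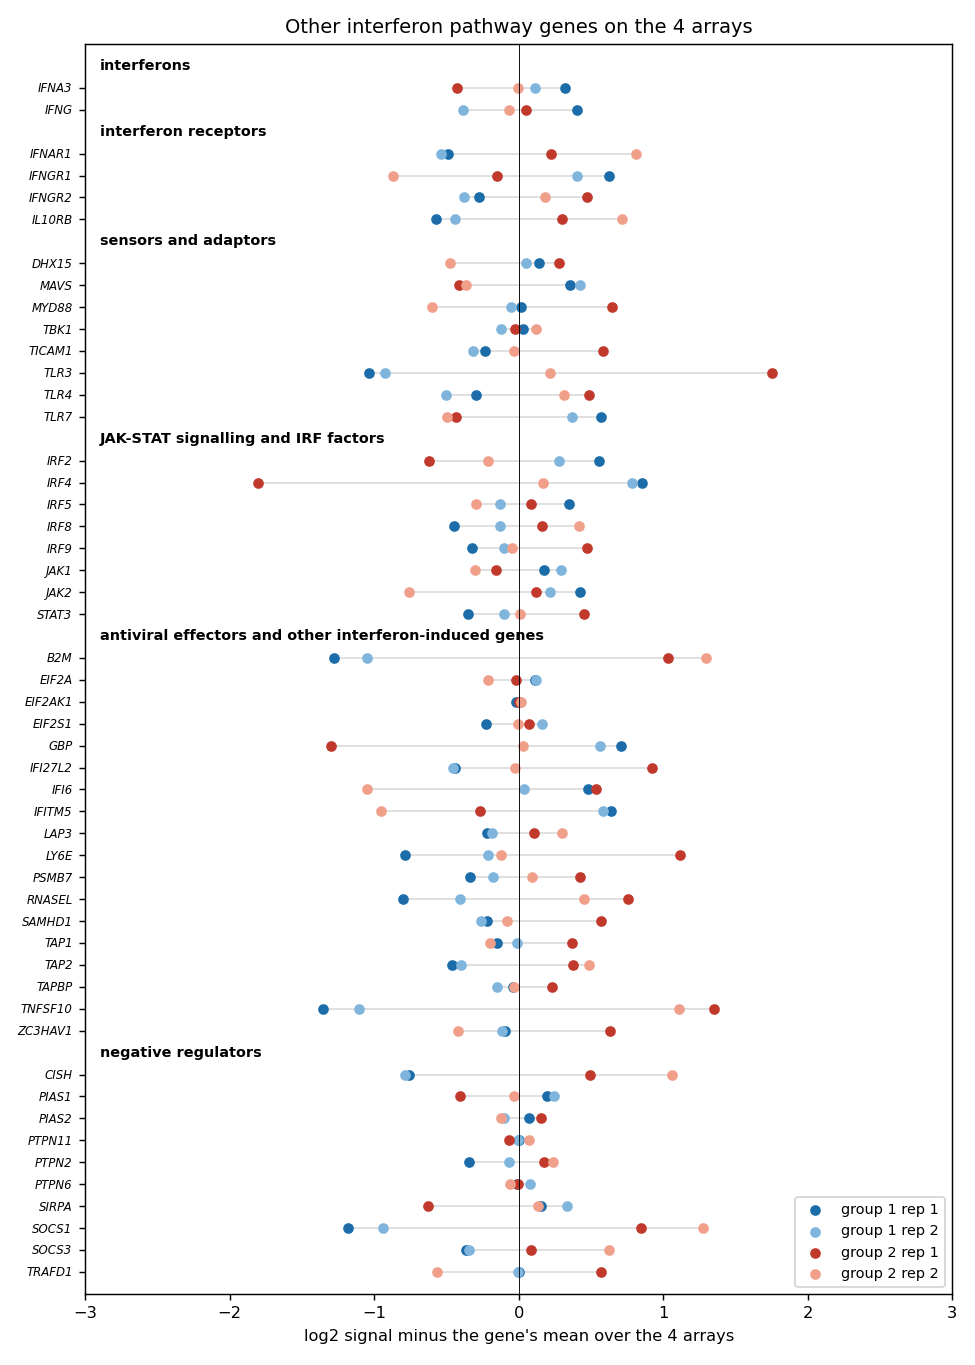
Level of each of 50 other interferon pathway genes on the 4 arrays, as the log2 signal minus the mean of the gene over the arrays, grouped by role. TLR3, LY6E and TRAFD1 have group 2 replicate 1 at the right, IRF4 and GBP have it at the left, and B2M, TNFSF10, SOCS1 and CISH have both group 2 arrays at the right.

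For each of the 5 genes the most alike profiles over the 4 arrays were sought among 4512 genes, by the root mean square difference of levels centred on their own mean. The nearest to MX1 was CRHR2, a receptor of corticotropin-releasing hormones, at 0.63 log2 units, followed by MAOA, an enzyme that oxidises monoamines, at 0.81. For IFIH1 they were MRPS30 (0.06) and RLN3 (0.08), for IRF1 C1GALT1C1 (0.03) and NUDT16L1 (0.04), for IRF7 TK1 (0.07) and BTK (0.09), and for EIF2AK2 FOXD1 and MC1R (0.05 each). None of the 5 was among the 2 nearest of another, and the profile of MX1 was the least closely matched. The measure is not scaled for size, and no gene rose more than MX1 on group 2 replicate 1 over replicate 2. Its wide distance therefore carries no weight. With 4 arrays and 4512 genes, neither does the absence of the 5 from each other's nearest.

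Markers of other cells also differed between arrays. Of hepatocyte markers 0 of 11 were called, against 9.67% of all genes, with 7 above 0 and 4 below (median 0.05). ALB, albumin, read 7.61 and 7.35 in group 1, and 7.59 and 6.80 in group 2, high on all 4 arrays. Not all of them were level, as VTN differed by -1.41 (adjusted p = 0.0884, limma). HNF4A was 2.02-fold higher on group 2 replicate 1 than on replicate 2. PTPRC (1.06) and CD74 (1.38), carried by leukocytes, were called higher in group 1, the 2 measured of that list, against 5.75% of all genes. The levels of T and B lymphocyte markers were summed relative to the 75th percentile. The sums were 38.2 and 38.6 in group 1, and 18.8 and 25.7 in group 2, with 0 of 10 called and 9 above 0 (median 0.99). Such sums follow the brightest probes. Here that was CD3D, a T cell marker, at 4.91 and 4.92 in group 1, and 3.87 and 4.19 in group 2. For macrophages, dendritic cells and heterophils the sums were 125 and 115 in group 1, and 165 and 105 in group 2, with 1 of 10 called in each direction and 7 above 0 (median 0.43). Without LYG2, a lysozyme and the gene called lower in group 1, the sums were 111 and 102 in group 1, and 104 and 61.2 in group 2. They were then led by CTSS, at 6.18 and 6.07 in group 1, and 6.20 and 5.48 in group 2. That list had a median of 0.63 between the group 2 arrays, and 1 of its genes was at least 2-fold higher on replicate 1 and 1 lower.

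Red cell, collagen and gut markers differed between the groups as well, while 5.75% of all genes were called higher in group 1. Erythroid markers summed to 390 and 323 in group 1, and 41.9 and 146 in group 2, with 3 of 8 called higher in group 1. The sums were led by the haemoglobin genes HBA1, HBBA and HBAD, which were not called. The 3 called were HBBR, SLC4A1 and RHAG. RHAG read -1.39 and -1.64 in group 1, and -6.14 and -4.59 in group 2, and was well above background on only 3 arrays. It passed the filter on dim signals through group 1, where it is high, so the filter favoured its call. Endothelial and stellate cell markers summed to 22.4 and 20.2 in group 1, and 6.55 and 5.40 in group 2, with 3 of 6 called higher. Those 3 were the collagen genes COL1A2, COL3A1 and COL5A1, which also led the sums. The endothelial genes CDH5 (0.53, adjusted p = 0.316, limma) and KDR (0.26, adjusted p = 0.458) did not pass. Of intestinal epithelium markers 6 of 9 were called higher, and their sums, led by genes that liver also expresses, were 454 and 362 in group 1, and 360 and 353 in group 2. GUCA2B, a gut peptide hormone (uroguanylin), read 0.99 and 0.80 in group 1, and -2.94 and -3.96 in group 2, a difference of 4.35 (adjusted p = 0.0212, limma). RBP2, FABP2, CDX2 and CDH17 were called as well, and were well above background on both group 1 arrays and on neither group 2 array. They passed the filter on dim signals through group 1 alone, where they are high, so the filter favoured their calls. RBP2, which binds retinol in the gut, read 2.03 and 1.82 in group 1. Of these lists, 7 of 56 measured genes were not well above background on some array, 4 of them intestinal. Their part in the values of the interferon genes was not tested. The sex chromosome signal of group 2 replicate 1 is read on the same array as its high MX1, and the part of either in the other was not tested.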

How the data were processed

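Liver RNA pools were hybridised to 4 one-colour (Cy3) oligonucleotide arrays, 2 per group. Per the file headers, the deposited intensity values were written by Feature Extraction 11.5.1.1 (Agilent), whose processed signal is net of background, and the array was designed on build galGal3. The deposited series table holds log2 values by the authors. Compared with the scanner files, they equalled log2 intensity minus the 75th percentile of the array, centred on each probe's median (r = 1.000 on every array). Its column medians were 0.084 and 0.016 for group 1, and -0.094 and -0.022 for group 2.

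Levels were computed as log2 of the processed intensity minus its 75th percentile on that array, taken over all 43803 non-control spots. Spots marked as outliers (8 to 25 per array) were left out, and spots of 1 probe averaged. No spot was saturated. Probes had to be well above background on both arrays of either group, which held for 33869 of 43603, of which 33866 could be tested. Names came from unversioned RefSeq accessions matched to the GRCg7b gene table, which named 11935 probes (27.4%). That build is not the array's, so no coordinates are given. A gene stands at its brightest kept probe. The comparison of groups used limma 3.58.1 (R 4.3.3), tested on simulated data first, with 2 residual and 2.60 prior degrees of freedom. Arrays give no depth in reads, and the precision is limited by how many there are.

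The genes and lists were chosen with earlier results of these data known. Named pathway genes are those called, plus the 3 largest differences per list between groups and between the group 2 arrays. ZC3HAV1 was named after its values were seen. A listed gene is not reported here. Alternatives were other normalizations, filters, probe summaries, the deposited table, a replicate block and each array left out. The normexp alternative used the median spot signal, since the files hold no mean signal. The planned promoter motifs were not searched, and no sequences were used here.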

Additional observations from a re-analysis of the deposited data

How the results depend on the processing

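The alternatives were run on the 5 genes and the 50 other pathway genes. Of the values, 161 kept their direction and their side of the threshold or stayed within 1.5 times or 1 SD. A further 14 moved, 4 reversed, whether or not they also became called, and 2 became called in the same direction. Values that were kept could still shrink, as IFIH1 did to -0.04 without group 2 replicate 1 and EIF2AK2 to 0.03 without group 1 replicate 1. With each array left out in turn, genes of the 5 called higher in group 1 numbered 0 to 1 and lower 0 to 2, their probes 0 to 3 and 0 to 5, and the other pathway genes 0 to 7 and 0 to 11. MX1 ranged from -3.36 to 1.38 and reversed to that upper value without group 2 replicate 1. IRF7 ranged from -0.03 to 0.65 and reversed to -0.01 without group 1 replicate 2 and to -0.03 without group 2 replicate 2. With the mean of a gene's probes IFIH1 differed by -0.19, and EIF2AK2 reversed to -0.12 between groups and moved to 0.84 between the group 2 arrays, since its probes differ. The 50 genes gave 3 higher and 7 lower calls with normexp and quantile normalization and 7 lower with median scaling, against 0 and 4. Over all genes the higher and lower calls were 391 and 345 with normexp and quantile normalization, against 280 and 191. With median scaling they were 203 and 302. The cause was not tested. IRF1 stayed lower in group 1 throughout, from -1.02 to -0.36 over both probes, and MX1 differed between the group 2 arrays by 3.92 to 4.80.

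Over all genes 471 were called (59.4% of them higher), against 505 (40.2%) with median scaling, 410 (51.5%) after quantile normalization, 736 with normexp, 156 with no filter, 298 with the replicate block, 1036 without group 2 replicate 1, 1141 without replicate 2 and 0 without either group 1 array (558 and 716 at an unadjusted p under 0.05, limma). The arrays share only replicate numbers, and the deviations of same-numbered arrays correlated at r = 0.03 across probes. With the replicate block 0 of the 5 genes and 3 of the 50 others were called lower, and CISH lost its call. CISH also lost it with no filter (adjusted p = 0.0624). B2M, TNFSF10 and SOCS1 lost theirs only without either group 1 array (adjusted p = 0.21 to 0.283), and the cause was not tested.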
